A study of Oryctolagus cuniculus with 6 samples.

Results

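Wnt signalling was examined in primary limbal stem cells (LSCs) of the rabbit through 10 genes of the deposited gene table, taken by name. They are the ligands WNT4, WNT5A and WNT10A, the receptors FZD6 and FZD7, the secreted inhibitors SFRP1, DKK2 and DKK3, the feedback target AXIN2 and the transcription factor TCF7L2. All 10 were among the 22190 genes of the table and among the 15029 tested. RNA was sequenced from cells that grew out of limbal explants, and each of the 2 groups, fresh and preconditioned, had 3 libraries. In the fresh group, the explants came from rabbit corneas that had not been frozen. In the preconditioned group, the corneas had spent 7 days in liquid nitrogen, and the freezing medium held the inflammatory cytokine IL-1β at 10 ng/mL. Freezing and cytokine were thus applied together and cannot be told apart, and cells frozen with no cytokine were not analysed here. Strain, age and the animal behind each library are not given in the sources used here, so that p values describe the spread between these libraries, which may be technical.

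Wnt ligands are secreted, lipid-modified proteins that bind Frizzled receptors. With the co-receptors LRP5 and LRP6, the canonical branch keeps β-catenin from being degraded, and β-catenin then acts with TCF and LEF factors on genes such as AXIN2, whose product limits the pathway again. Dickkopf proteins act on the co-receptors and SFRP proteins on the ligands, and other branches of the pathway steer cell polarity and movement without β-catenin. In the eye, Wnt signalling is known for its part in the limbal niche and in the choice between corneal and conjunctival fates.

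None of the 10 genes was differentially expressed at the cutoffs used, which were 0.05 for the adjusted p and 1 for the size of the log2 fold change. Over all genes tested, edgeR's quasi-likelihood test called 2.29%, with 1.08% higher and 1.20% lower in the preconditioned group. TCF7L2 had an adjusted p under 0.05 with a smaller fold change, and 5.08% of all genes passed the adjusted p alone. WNT5A was close to both cutoffs and passed neither. At an unadjusted p of at most 0.05 there were 3 of the 10 genes (TCF7L2, WNT5A and WNT10A), against 30.6% of all genes. Groups did not overlap for TCF7L2 and WNT5A, 2 of the 10 genes, against 36.7% of all genes tested. The median log2 fold change was −0.09 for the 10 genes and 0.01 for all genes tested. The Wald test of DESeq2 called none of the 10 at the same cutoffs. Without the fold change cutoff, WNT5A (adjusted p = 0.0044) and TCF7L2 (adjusted p = 0.0012) passed with DESeq2. With both cutoffs DESeq2 called 7.78% of all genes, and its share at the adjusted p alone was not counted. For a single gene, the two-sided exact permutation test of 3 libraries against 3 cannot go below p = 0.1, which TCF7L2 and WNT5A both reached.

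**Figure D1:**
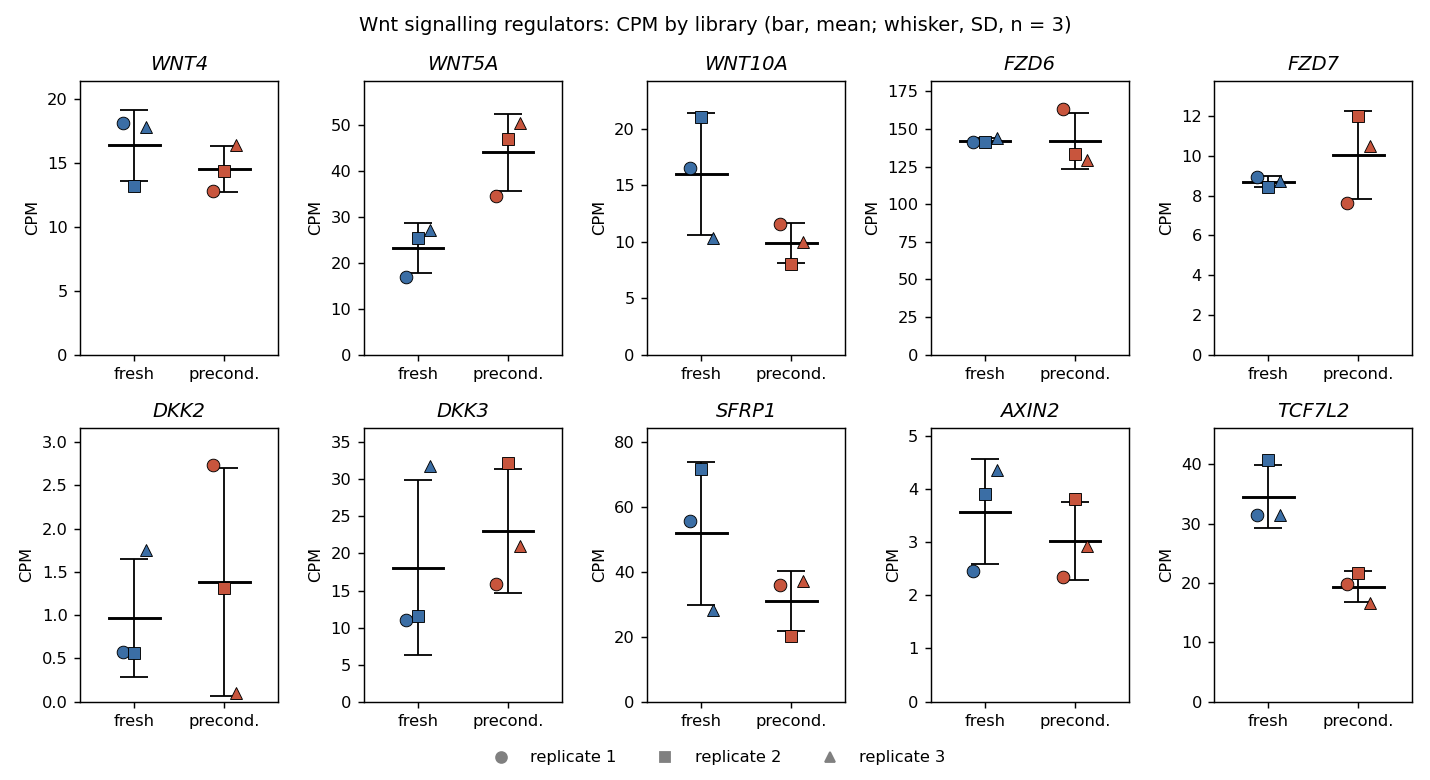
Expression of the 10 Wnt genes in CPM (counts scaled to a common library size by TMM) in each of the 3 fresh and 3 preconditioned libraries, with the group mean as a bar and the SD as whiskers. TCF7L2 lay lower and WNT5A higher in all preconditioned libraries, and the groups overlapped for the other 8 genes.

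The libraries held 31952352 to 34327534 counts on genes. Over all genes, 163 were called higher and 181 lower when libraries were scaled by TMM (trimmed mean of M values), and 142 higher and 423 lower when they were scaled by their totals. Preconditioned replicate 1 lay between the groups on the first principal component, at 2.27, where the fresh libraries ranged from −39.3 to −29.5 and the other preconditioned libraries lay at 44.1 and 53.1. Epithelial genes were expressed in all libraries, among them TP63, PAX6, CDH1 and KRT5. Stromal genes were expressed as well. Summed over the marker lists, 9 stromal genes averaged 356 FPKM in fresh and 509.5 FPKM in preconditioned cells. For 7 epithelial genes it was 2031 and 1497 FPKM. COL1A1 (20.0 and 112 FPKM) and KRT3 (625 and 242 FPKM) differed most within these sums, and both lists held genes of either direction. Since the cells were sequenced in bulk, fewer cells of a type and less RNA per cell cannot be told apart in any of the values that follow.

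Among the ligands, WNT5A was closest to the cutoffs. WNT5A signals mostly through the branches that do not need β-catenin and is known for its role in cell movement. Its expression in the fresh libraries was 17.0, 25.4 and 27.3 CPM, and in the preconditioned libraries 34.7, 47.1 and 50.6 CPM. Every preconditioned library lay above every fresh library. The group means were 23.2 ± 5.51 and 44.1 ± 8.37 CPM (SD, n = 3 each), a 1.90-fold difference. On the log2 scale this was 0.93 ± 0.22 (standard error), with a 95% interval of 0.40 to 1.45. The adjusted p was 0.055, just over the cutoff. Preconditioned replicate 1 was the lowest of its group, and without it WNT5A passed both cutoffs (log2 fold change 1.06, adjusted p = 0.017). Leaving out any other library gave adjusted p values of 0.10 to 0.18 and log2 fold changes of 0.74 to 1.05. Over all genes, 9.99% were called without preconditioned replicate 1 and 0.0908% to 0.468% without any other library, against 2.29% with all.

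WNT10A, a ligand of the canonical branch known from skin, hair and teeth, went the other way on average. It was expressed at 16.6, 21.1 and 10.3 CPM in the fresh libraries and at 11.6, 8.06 and 9.98 CPM in the preconditioned libraries. Fresh replicate 3 fell among the preconditioned libraries, so that the groups overlapped. Mean expression was 16 ± 5.40 CPM in fresh and 9.88 ± 1.77 CPM in preconditioned cells (SD, n = 3 each). The log2 fold change of −0.69 ± 0.29 (standard error) had an adjusted p of 0.16. The 95% interval, −1.37 to −0.02, reached from almost no difference to more than the fold change cutoff. Without fresh replicate 2, the highest library, the log2 fold change was −0.45. Without fresh replicate 3 it was −0.93 (adjusted p = 0.11).

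WNT4, a ligand known from the development of the kidney and the female reproductive tract, differed by less than the spread between its libraries. It was measured at 18.1, 13.1 and 17.8 CPM in the fresh group and at 12.8, 14.4 and 16.4 CPM in the preconditioned group. Values of both groups ran through each other, and the log2 fold change was −0.17 ± 0.19 (standard error, adjusted p = 0.57). The 95% interval of −0.61 to 0.27 leaves room for a moderate difference in either direction and does not include a log2 fold change of 1. With each library left out in turn, the log2 fold change was −0.31 to −0.09.

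The 3 ligands were also set against the rest of their family. Shares of the summed FPKM (fragments per kilobase of gene, scaled to the library's total) were used, because they compare genes per length and within a library. By FPKM, WNT5A was the leading ligand in every library. It held 37.5% to 54.7% of the FPKM of 18 Wnt ligands in fresh cells, against 56.3% to 70.1% in preconditioned cells. WNT10A held 10.3% to 19.0% of the fresh sum and 6.0% to 9.42% of the preconditioned sum. WNT4 held 6.98% to 11.8% and 6.12% to 6.30%. A higher share of one ligand lowers the others by construction, and on the CPM scale the groups overlapped for WNT10A and WNT4. WNT7A was the other ligand of note, at 12.4% to 20.7% and 7.31% to 13.9%, which overlapped, while the whole ligand sum was 41.8 to 51.6 FPKM in the fresh and 52.2 to 63.8 FPKM in the preconditioned libraries. The gene length behind the FPKM of WNT5A came out at 1139 bases, the shortest of the 10 genes (2277 to 6065 bases for the others). How the authors defined that length is not stated. The share and the FPKM level of WNT5A depend on it, whereas its fold change between groups does not. By CPM, WNT5A (17.0) lay below WNT7A (26.8) and WNT4 (18.1) in fresh replicate 1.

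**Figure D2:**
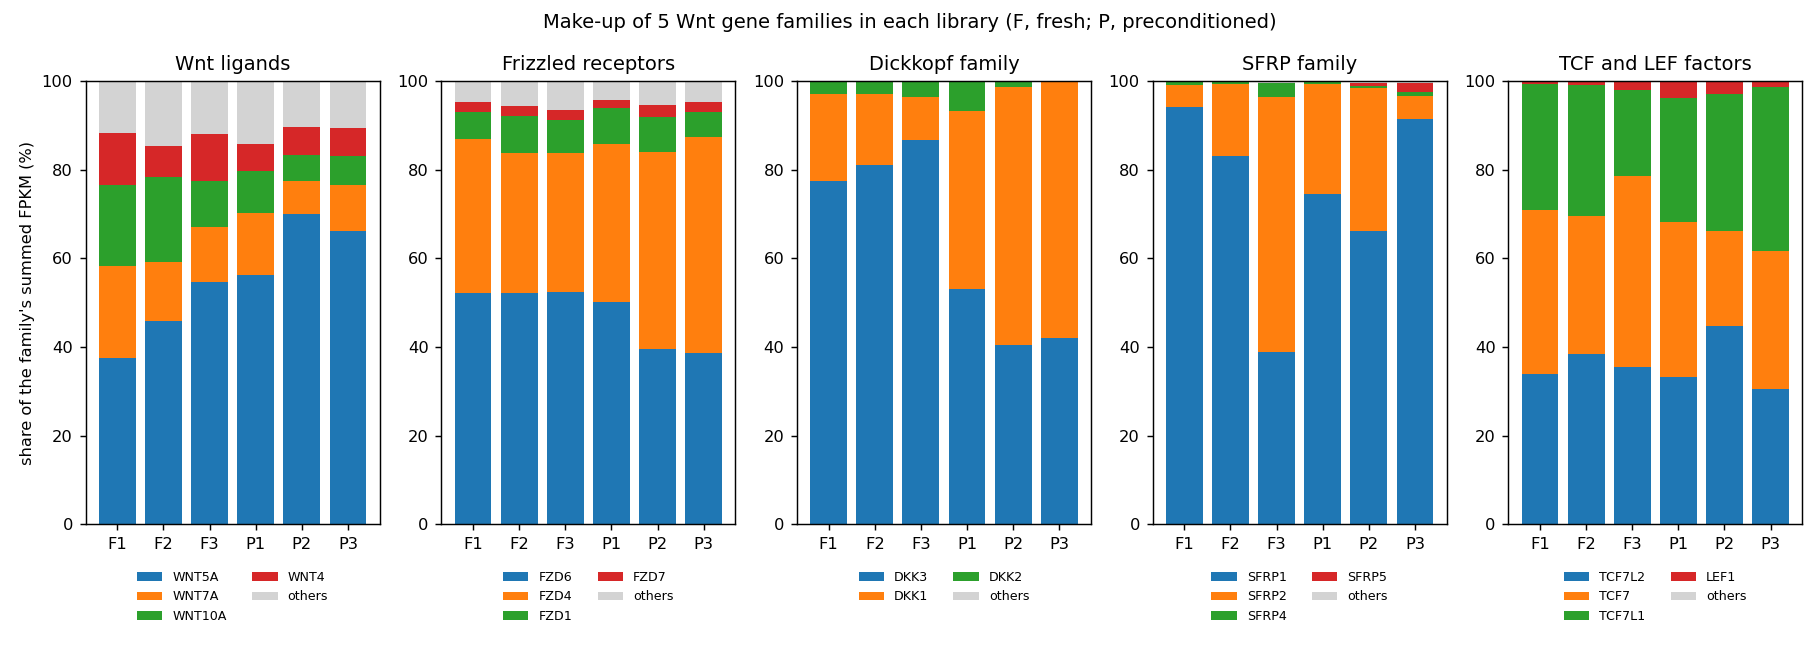
Share of each gene in the summed FPKM of its family, in percent, for 5 Wnt gene families in the 3 fresh (F1 to F3) and 3 preconditioned (P1 to P3) libraries. WNT5A took up 56.3% to 70.1% of the ligands in the preconditioned group, and DKK1 had a larger share than DKK3 in preconditioned replicates 2 and 3. The share of WNT5A depends on the gene length behind its FPKM.

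Of the Frizzled receptors, FZD6 was measured most precisely. FZD6 is known for setting planar polarity in hair and skin. Its values were 142, 142 and 144 CPM in the fresh libraries and 163, 133 and 129 CPM in the preconditioned libraries. Fresh libraries were nearly identical and lay within the range of the preconditioned libraries. The log2 fold change was −0.0029 (standard error 0.12, adjusted p = 0.99), and its 95% interval, −0.28 to 0.28, was the narrowest of the 10 genes. FZD7, a receptor known to be expressed in limbal epithelial stem cells, was expressed at 8.96, 8.44 and 8.72 CPM in the fresh group and at 7.64, 12.0 and 10.5 CPM in the preconditioned group. Preconditioned replicate 1 lay under the fresh libraries and the other 2 above them. Its log2 fold change was 0.21 (standard error 0.22, 95% interval −0.30 to 0.71, adjusted p = 0.55). Without preconditioned replicate 1 it was 0.36, and without preconditioned replicate 2 it was 0.06.

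Within the family, FZD6 and FZD4 made up most of the Frizzled FPKM. FZD4, which also serves as the receptor for norrin in retinal vessels, was not among the 10 genes but had an adjusted p under 0.05. It was expressed at 149, 135 and 135 CPM in the fresh libraries and at 183, 236 and 257 CPM in the preconditioned libraries, and its log2 fold change was 0.69 ± 0.15 (standard error, adjusted p = 0.046), short of the cutoff. The share of FZD6 was 52.1% to 52.5% in the fresh group and 50.1%, 39.5% and 38.6% in preconditioned replicates 1, 2 and 3, while FZD4 took 31.2% to 34.9% and 35.6% to 48.7%. A higher share of FZD4 lowers that of FZD6 by construction, and the log2 fold change of FZD6 was −0.0029. FZD7 held 1.70% to 2.58% of the Frizzled FPKM in all libraries.

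The secreted inhibitors varied most within the groups. SFRP1, which binds Wnt ligands outside the cell, was expressed at 55.8, 71.9 and 28.3 CPM in the fresh libraries and at 35.9, 20.3 and 37.1 CPM in the preconditioned libraries. As with WNT10A, fresh replicate 3 lay among the preconditioned libraries. SFRP1 averaged 52.0 ± 22.0 CPM in fresh and 31.1 ± 9.38 CPM in preconditioned cells (SD, n = 3 each). On the log2 scale the difference was −0.74 ± 0.37 (standard error), and the adjusted p was 0.22. Its 95% interval ran from −1.63 to 0.14. Without fresh replicate 3 the log2 fold change was −1.04 (adjusted p = 0.12), and over all libraries left out in turn it was −1.04 to −0.44.

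DKK3 is the divergent member of the Dickkopf family and, unlike DKK1 and DKK2, is not known as a ligand of LRP5 and LRP6. It was also the only one of the 10 genes that the deposited annotation did not place in the KEGG pathway of Wnt signalling. Values were 11, 11.6 and 31.8 CPM in the fresh group and 15.9, 32.3 and 21.1 CPM in the preconditioned group. One library of each group stood near 32 CPM. Fresh replicates 1 and 2 lay below all preconditioned libraries, so that the overlap of the groups rests on fresh replicate 3. The log2 fold change was 0.35 (standard error 0.47, 95% interval −0.77 to 1.47, adjusted p = 0.65), and it was 1.03 (adjusted p = 0.14) without fresh replicate 3 and 0.03 without preconditioned replicate 2.

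DKK2, an inhibitor needed for the corneal fate of the ocular surface in mice, was the least expressed of the 10 genes. It had 20, 20 and 64 counts in the fresh libraries and 90, 41 and 3 in the preconditioned libraries, which is 0.563 to 1.75 CPM and 0.0988 to 2.74 CPM. The highest and the lowest of all 6 libraries were both preconditioned. The log2 fold change was 0.52 ± 0.98 (standard error, adjusted p = 0.75), and its 95% interval of −1.79 to 2.83 sets almost no limit on the difference. Without preconditioned replicate 1 its direction turned (log2 fold change −0.46).

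DKK1 was the gene of the Dickkopf family that did pass the cutoffs, although it is not among the 10. DKK1 is a strong inhibitor of the canonical branch through LRP5 and LRP6. It was expressed at 1.51, 1.24 and 1.97 CPM in the fresh libraries and at 6.51, 25.2 and 15.7 CPM in the preconditioned libraries. All preconditioned libraries lay above all fresh libraries, with preconditioned replicate 1 nearest to them. The difference was 10.04-fold (log2 fold change 3.33, standard error 0.51, adjusted p = 0.031). Without any one of fresh replicates 1 to 3 or preconditioned replicates 2 and 3, the adjusted p was 0.077 to 0.13. The log2 fold changes were then 2.82 to 3.52. The same fits called 0.0908% to 0.468% of all genes, against 2.29% with all libraries. Of the FPKM summed over 4 Dickkopf genes, DKK3 held 77.4% to 86.6% in fresh and 40.5% to 53.2% in preconditioned cells. DKK1 held 9.89% to 19.6% and 40.1% to 58.2%. A higher share of DKK1 lowers that of DKK3 by construction, and DKK3 itself averaged 7.86 and 8.84 FPKM.

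In the SFRP family, SFRP1 led with 66.2% to 94.1% of the FPKM in 5 of the libraries. The exception was fresh replicate 3, where SFRP1 held 38.9% and SFRP2, another SFRP inhibitor, 57.5%. SFRP2 ranged from 1.54 to 21.1 CPM among the fresh libraries alone, and it did not pass the test (log2 fold change −1.30, adjusted p = 0.40).

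TCF7L2, a transcription factor that binds β-catenin on DNA, was the only one of the 10 genes with an adjusted p under 0.05. It was expressed at 31.5, 40.7 and 31.4 CPM in the fresh libraries and at 19.9, 21.7 and 16.7 CPM in the preconditioned libraries. Each preconditioned library lay below each fresh library. The means were 34.6 ± 5.33 and 19.4 ± 2.54 CPM (SD, n = 3 each), which is 1.78-fold lower in the preconditioned group (log2 fold change −0.83, standard error 0.17, 95% interval −1.22 to −0.44, adjusted p = 0.042). The fold change did not reach the cutoff. The direction was the same in all 14 alternative fits of this gene, and the adjusted p was 0.0012 to 0.16. Leaving out preconditioned replicate 1 gave 0.022, while leaving out any other library gave 0.099 to 0.16. Calls over all genes likewise rose without preconditioned replicate 1 and fell without any other library.

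The summed FPKM of TCF7, TCF7L1, TCF7L2 and LEF1 did not overlap between the groups, which was not tested. This sum includes TCF7L2 itself and carries no TMM scaling. By CPM, the groups overlapped for TCF7L1 and LEF1 but not for TCF7, and 36.7% of all genes tested did not overlap. The sum was 18.3, 20.9 and 17.5 FPKM in the fresh libraries and 10.7, 8.22 and 9.64 FPKM in the preconditioned libraries. TCF7L2 kept a similar share of this sum, at 33.8% to 38.4% in fresh and 30.6% to 44.8% in preconditioned cells. TCF7, which shares the DNA-binding domain of the family, had 19.7, 18.9 and 21.7 CPM against 12.0, 5.88 and 9.68 CPM (log2 fold change −1.13, standard error 0.26, adjusted p = 0.053). For TCF7L1 it was −0.54 (adjusted p = 0.20), and LEF1 had the lowest level of the family, with group means of 0.826 and 1.15 CPM (log2 fold change 0.47, adjusted p = 0.62).

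AXIN2 is transcribed in answer to β-catenin in many tissues and is commonly read as a gauge of the canonical branch. It was expressed at low levels, with 85, 139 and 159 counts in the fresh and 77, 119 and 89 in the preconditioned libraries. On the CPM scale this was 2.46, 3.91 and 4.35 against 2.34, 3.81 and 2.93. The groups overlapped almost fully, and the log2 fold change was −0.24 ± 0.33 (standard error, adjusted p = 0.66). Its 95% interval of −1.02 to 0.54 still includes the fold change cutoff on the lower side. With each library left out in turn, the log2 fold change was −0.45 to −0.08.

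**Figure D3:**
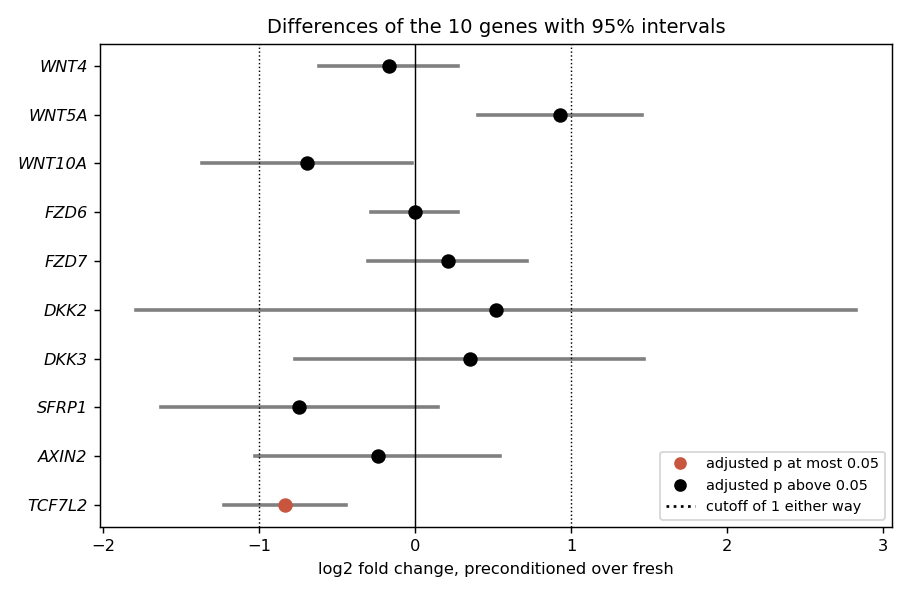
Log2 fold change of each of the 10 Wnt genes (preconditioned over fresh) from edgeR, with its unadjusted 95% interval as a line and the fold change cutoff of 1 in either direction as dotted lines. The interval of FZD6 is the narrowest and that of DKK2 the widest, and TCF7L2 alone has an adjusted p of at most 0.05.

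By length-corrected level, the 10 genes spanned about 2 orders of magnitude. In the fresh group, FZD6 was highest with a mean of 34.3 FPKM, followed by WNT5A (21.6), SFRP1 (14.2), DKK3 (7.86), WNT10A (7.43), TCF7L2 (6.81), WNT4 (4.47), FZD7 (1.52), AXIN2 (0.711) and DKK2 (0.306 FPKM). FZD6 lay clear of WNT5A in all fresh libraries. The place of WNT5A above SFRP1 and TCF7L2 rests on its short gene length (23.2 CPM against 52.0 and 34.6 CPM). From WNT5A down to TCF7L2, each gene overlapped with the next, and so did AXIN2 and DKK2, whereas the steps from TCF7L2 to WNT4, from WNT4 to FZD7 and from FZD7 to AXIN2 were larger than the spread. In the preconditioned group, WNT5A (36.4 FPKM) and FZD6 (30.5 FPKM) led and overlapped, where the place of WNT5A rests on its short gene length (44.1 CPM against 142 CPM for FZD6). Below them, DKK3, SFRP1, WNT10A, WNT4 and TCF7L2 followed, each overlapping with the next of these. FZD7, AXIN2 and DKK2 stayed last in this order. By FPKM averaged over all libraries, FZD6 and WNT5A exceeded 84.6% and 83.0% of the tested genes, and AXIN2 and DKK2 exceeded 19.1% and 13.4%. The value for WNT5A again depends on its gene length.

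Other genes of the pathway were taken from a list of 98 names sorted by role, of which 93 were in the table and 70 were tested. Of these 70 genes, which include the 10, 35 had a higher and 35 a lower mean in the preconditioned group, and the median log2 fold change was 0.01, as for all genes. DKK1 was called higher and LRP5 was called lower, which is 2.86% of the list against 2.29% of all genes. At the adjusted p alone, FZD4 was also higher and TCF7L2 and PTK7 lower. Groups did not overlap for 23 genes (32.9% against 36.7% of all genes), 11 of them higher and 12 lower. With DESeq2, which called 7.78% of all genes, 7 genes of the list were called, which added NOTUM, PORCN and PRICKLE2 as higher and TCF7 and ZNRF3 as lower.

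**Figure D4:**
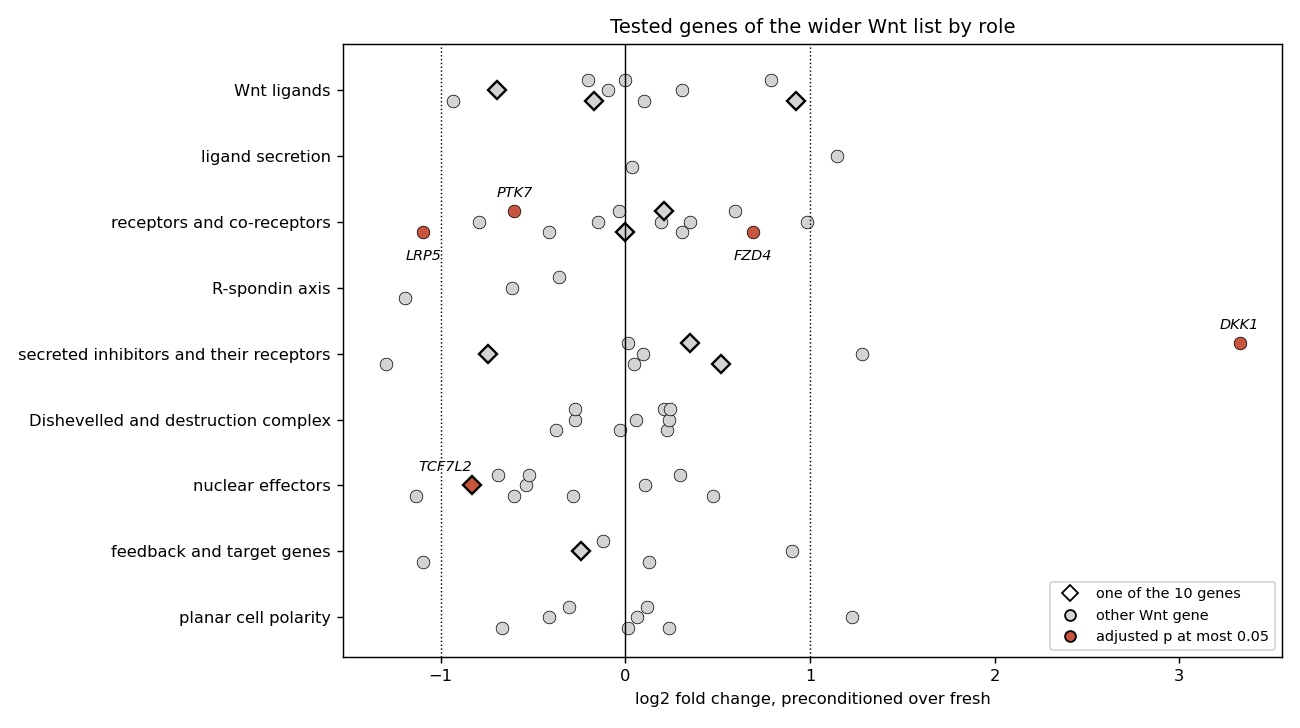
Log2 fold change (preconditioned over fresh) of the 70 tested genes of the wider Wnt list, 1 row for each role, with the 10 genes as diamonds and those that passed the adjusted p in red and named. DKK1 stands at 3.33, and most other genes lie between the dotted lines of the fold change cutoff.

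LRP5, a co-receptor of the canonical branch, was expressed at 102, 101 and 98.2 CPM in the fresh libraries and at 61.2, 42.4 and 37.0 CPM in the preconditioned libraries. The fresh libraries were close to each other and all well above the preconditioned ones. Its log2 fold change was −1.09 (standard error 0.19, adjusted p = 0.037). Without any one of fresh replicates 1 to 3 or preconditioned replicates 2 and 3, the adjusted p was 0.078 to 0.14. The log2 fold changes were then −1.11 to −0.95. Calls over all genes fell in these fits too. For LRP6, the second co-receptor, the log2 fold change was −0.41 and the adjusted p 0.065. PTK7, a co-receptor known from planar cell polarity, was measured at 122, 127 and 101 CPM against 84.7, 70.5 and 75.6 CPM (log2 fold change −0.60, standard error 0.13, adjusted p = 0.047). Leaving out any one library gave adjusted p values of 0.015 to 0.17 for PTK7 and 0.0055 to 0.16 for FZD4.

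By role, 10 ligands were tested and none was called, with a median log2 fold change of −0.05. Of 14 receptors and co-receptors, 1 was called lower (LRP5), and FZD6 had the highest FPKM averaged over all libraries (32.4, against 26.0 for FZD4), although FZD4 (30.6 FPKM) and FZD6 (30.5 FPKM) were level in the preconditioned group. Secretion of ligands was covered by WLS, the carrier of Wnt proteins and the higher of both genes (42.0 FPKM, log2 fold change 0.03), and by PORCN, which attaches the lipid (log2 fold change 1.15, adjusted p = 0.10). The R-spondin axis had 3 tested genes, all with a lower mean (median −0.61, none called), and LGR4, a receptor for R-spondins, was the highest of them at 7.03 FPKM. Among 9 inhibitors and their receptors, 7 had a higher mean and 1 was called (DKK1), and KREMEN1, which works with Dickkopf proteins, had the highest level (17.5 FPKM, log2 fold change 0.01). None of the 9 genes of the Dishevelled proteins and the destruction complex was called, and their log2 fold changes stayed between −0.38 and 0.24. CTNNB1, which encodes β-catenin, was the highest of all at 152 FPKM (log2 fold change 0.21, adjusted p = 0.29). In the group of 10 nuclear effectors, 7 had a lower mean (median −0.53), none was called, and TLE3, a co-repressor, was highest at 16.3 FPKM. The 5 tested feedback and target genes, AXIN2 included, had adjusted p values of 0.19 to 0.93, with BAMBI, a decoy receptor of the TGF-β family, highest at 3.65 FPKM. The 8 genes of planar cell polarity had adjusted p values of 0.12 to 0.99, and CELSR1, an adhesion receptor, had the highest mean (10.7 FPKM).

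The deposited annotation gives a second view of the pathway. It assigned 159 genes to KEGG's Wnt signalling, of which 125 were tested and 3 were called (2.40% against 2.29% of all genes). These were DKK1 and MMP7 as higher and LRP5 as lower, and their names were taken after the values had been seen. The median log2 fold change of the 125 genes was −0.03.

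Levels of marker genes are given beside 3 of the 10 genes, which were chosen after their values were seen and without a count of how many other genes follow the markers as closely. The summed FPKM of 7 epithelial markers, in which KRT5 (mean 1077 FPKM) and KRT3 (434 FPKM) weigh most, was 1970, 2680 and 1443 in the fresh and 1855, 1280 and 1355 in the preconditioned libraries. WNT10A ran through the libraries in the same order, from fresh replicate 2 down to preconditioned replicate 2, with 7.67, 9.81 and 4.82 FPKM against 4.91, 3.23 and 4.17 FPKM. SFRP1 was highest in fresh replicates 2 and 1 (19.7 and 15.2 FPKM) and lowest in preconditioned replicate 2 (4.78 FPKM), as was this sum, and the order of the other 3 libraries differed. The peak of the sum in fresh replicate 2 came mostly from KRT3 (1238 FPKM there), and KRT5, TP63, PAX6 and EPCAM were not highest in that library. The sum of 9 stromal markers, such as COL1A1, VIM and DCN, was 239.9, 361.5 and 466 FPKM against 367, 748 and 414 FPKM. DKK3 was highest in the same pair of libraries as this sum, fresh replicate 3 (13.8 FPKM) and preconditioned replicate 2 (12.1 FPKM). It was lowest in fresh replicate 1 (4.73 FPKM). The stromal markers COL1A1, COL1A2, KERA and THY1 did not have their highest values in that pair. COL1A1 had 23.9 FPKM in fresh replicate 3, against 99.2 to 131 FPKM in preconditioned cells. Of the 9 stromal markers, COL1A1 alone was called (higher), and of the 7 epithelial markers none. Members of both lists differed in direction, with 3 higher and 4 lower means among the epithelial and 5 higher and 4 lower among the stromal markers. TP63, a transcription factor of basal epithelial cells, was at 226 to 246 CPM in fresh and 112 to 184 CPM in preconditioned cells (log2 fold change −0.77, adjusted p = 0.059). EPCAM, an epithelial adhesion molecule, did not overlap between the groups in the other direction (log2 fold change 0.50, adjusted p = 0.060), and PAX6, a regulator of eye development, overlapped (log2 fold change 0.81, adjusted p = 0.11). Markers of melanocytes summed to 0.252 to 0.523 FPKM and those of vascular endothelium to 0.284 to 3.52 FPKM, with TYR, MLANA and VWF at 0 counts in some libraries of both groups. Immune markers summed to 73.8 to 101 FPKM in the fresh and 86.5 to 203 FPKM in the preconditioned group, nearly all of it CD68, while PTPRC, which is shared by leukocytes, had 7 to 47 counts. The part of any of these cell types in the Wnt genes was not tested.

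**Figure D5:**
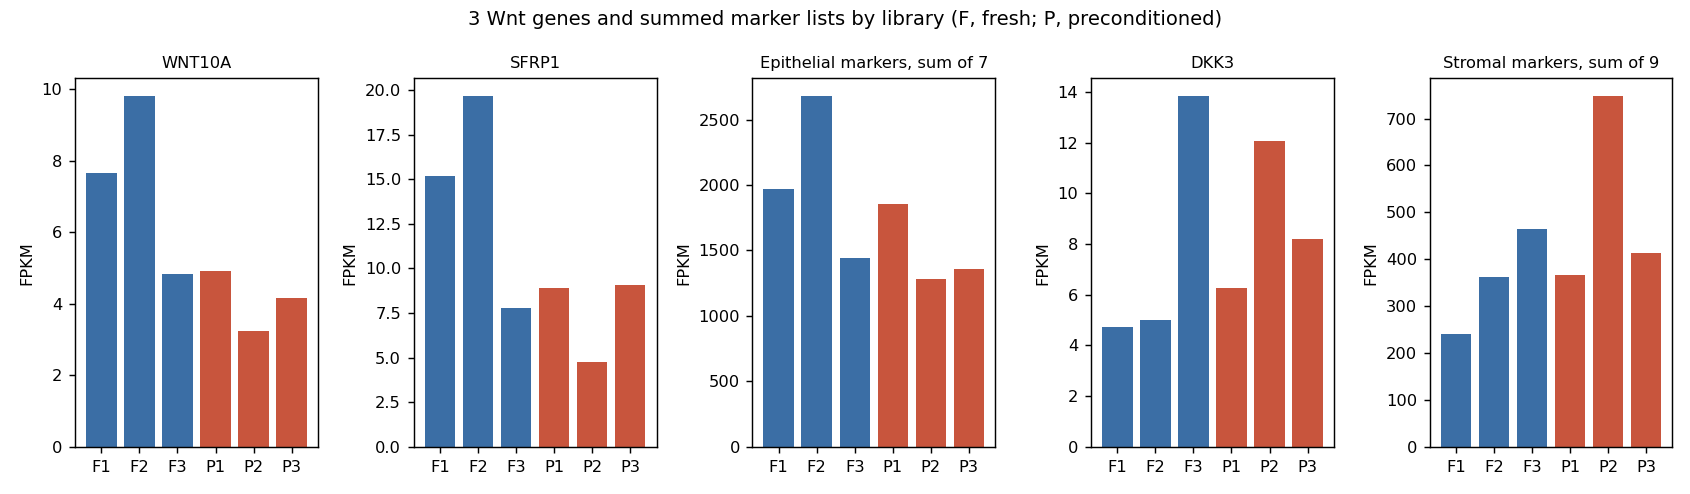
FPKM of WNT10A, SFRP1 and DKK3 and summed FPKM of 7 epithelial and 9 stromal marker genes in the 3 fresh (F1 to F3, blue) and 3 preconditioned (P1 to P3, red) libraries. WNT10A and the epithelial sum are both highest in F2 and lowest in P2, and DKK3 and the stromal sum are both highest in F3 and P2.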

How the data were processed

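RNA-seq was analysed for 3 fresh and 3 preconditioned libraries of rabbit LSCs, grouped by their GEO titles. The authors aligned the reads with hisat2 (v. 2.1.0), counted them per gene with htseq-count (v. 0.11.2), and deposited the raw counts. Their FPKM, as deposited, are the counts divided by each library's total and by 1 length per gene. Genome build, annotation, strand setting and the definition of that length are not given in the sources used here, so that no coordinates are given and reads shared with overlapping genes could not be judged.

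All genes of the table were fitted in R 4.3.3 with edgeR 4.0.16 (filterByExpr, TMM, robust quasi-likelihood test, condition as the only factor). P values were adjusted by Benjamini-Hochberg over the 15029 genes tested. Standard errors and 95% intervals of log2 fold changes come from the F statistic, and the intervals are not adjusted. CPM divide the counts by the TMM-scaled library size. FPKM, which carry no TMM scaling, were used for levels between genes and for shares. The study's methods use DESeq2, which served as an alternative here (DESeq2 1.42.0), as did other scalings and filters, limma 3.58.1 on log2(FPKM + 1) and log2(FPKM + 0.1), the replicate number as a block, and leaving out each library. The fits were tested on simulated counts, in which all genes had the same dispersion and no library stood apart from its group.

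The 10 genes, the wider list and the marker lists were chosen with earlier results of these data known. Named genes are the 10, genes of the wider list that passed the adjusted p, and the most expressed gene of each role. WNT7A, SFRP2, TCF7, TCF7L1, LEF1, LRP6, PORCN, MMP7 and the genes added by DESeq2 were named after their values were seen. All 10 gene identifiers carry the same symbol in a RefSeq gene table. In the table, 5 Wnt names (WNT7B, FZD10, PYGO2, NKD1 and CCND1) and the markers KRT14 and KRT12 were not found under those symbols.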

Additional observations from a re-analysis of the deposited data

How the results depend on the processing

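None of the 10 genes was called in the main analysis, and 1 was called in 3 of the alternatives. These were TCF7L2 with library size alone (log2 fold change −1.003, against a median of −0.16 over all genes in that fit) and with no fold change cutoff, and WNT5A without preconditioned replicate 1. The wider Wnt list had 2 calls in the main analysis, 7 with DESeq2, 5 with library size alone, 4 with limma on log2(FPKM + 0.1), 5 with no fold change cutoff and 0 to 8 when each library was left out. Over all genes, 344 calls became 1190 with DESeq2, 565 with library size alone, 521 with limma on log2(FPKM + 0.1), 763 with no fold change cutoff and 14 to 1546 when each library was left out. The highest of these counts came without preconditioned replicate 1.

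With the replicate number as a block, 30 genes were called, 0 of them in the wider list, and the adjusted p was 0.088 for TCF7L2 and 0.076 for WNT5A, DKK1 and LRP5. Libraries of the same number did not deviate together (r = −0.07, −0.08 and −0.12 across genes). Those of different numbers gave r of −0.237 to 0.269. Deviations from means of 3 libraries balance each other, so these values cannot decide whether the libraries were paired.

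Directions turned for 2 of the 10 genes. FZD6 had a log2 fold change of 0.0029 with DESeq2's size factors and of −0.1264 to 0.0623 when each library was left out, and DKK2 had −0.459 to 1.2719 in the latter. The other 8 kept their direction in all 14 fits. Of the 10 genes, DKK2 had the fewest counts, with 3 to 90 per library, and then AXIN2, with 77 to 159. Whether depth or the spread between libraries limits them was not tested.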
